A study of Mus musculus with 28 samples.

Results

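The glucocorticoid and FOXO responsive genes Arrdc2, Arrdc3, Txnip, Fkbp5, Tsc22d3, Klf9, Zbtb16, Sgk1 and Pdk4 were followed across mouse tail tendons. These 9 stress-hormone and fasting-response genes were chosen because Arrdc3 was higher in established Fosl-2(Tg) tendons than in their controls in these same data. They were 9 of 25719 genes counted, and 9 of 9 had enough reads to be tested in each of the 4 comparisons made. Since the members were chosen by measured values of the established cohort, Tg against WT levels of Arrdc3 among them, the genotype difference of all 9 in that cohort is given as a description, without p-values, and counts of calls from it support nothing.

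Total RNA of tail tendon fascicles was sequenced after ribosomal RNA depletion in 28 C57BL/6 mice, 1 library for each mouse. Fosl-2(Tg) mice carry extra murine Fosl2, a gene for an AP-1 transcription factor, inserted at random and driven by the MHC class I promoter H2Kb, which is active in most cell types. The insert also carries eGFP as a marker, and the WT controls were mice of the same breeding without it. The early cohort (6 to 8 weeks old) held 7 WT and 8 Tg mice, all male. The established cohort (older than 14 weeks) held 6 WT mice, 5 of them female, and 7 Tg mice, 6 of them female, so cohort and sex cannot be told apart in comparisons between cohorts. Hour of collection and feeding state are not given in the sources used here.

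Glucocorticoids enter cells and bind the glucocorticoid receptor, encoded by Nr3c1, which moves to the nucleus and induces genes next to its DNA response elements. FOXO factors are held out of the nucleus by insulin and AKT signalling and switch on catabolic genes when that signal drops, as in fasting. Several genes, Pdk4 among them, answer to both inputs. In tendon, glucocorticoids are known for lowering collagen production by the resident fibroblasts.

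Libraries held 9645598 to 66894396 counts. Levels per mouse are CPM, counts scaled to a common library size after TMM normalisation. Fosl2 itself lay at 58.8 to 136 CPM in early WT, 63.4 to 156 in early Tg, 78.1 to 169 in established WT and 121 to 160 in established Tg mice, so its ranges overlapped between genotypes in both cohorts, and reads of the transgene and of the native gene cannot be told apart. The tendon markers Col1a1, Tnmd and Scx were present in every mouse. In established Tg mice 4 of 8 tendon markers were lower than in WT and 0 higher (edgeR's quasi-likelihood test, FDR at most 0.05). Of all genes, 534 of 15862 were lower by this test. Col1a1 differed by a log2 fold change of -2.50 ± 0.63 (SE). Skeletal muscle markers varied widely in every group, Ckm from 3.78 to 1457 CPM, with summed levels of the 12 markers from 55.2 to 21938 CPM. Of 7 keratinocyte markers 3, Krt14 among them, stayed under 1 CPM in every mouse, while Krtdap reached 37.1 CPM and Dsp lay at 5.29 CPM or more in every mouse, and the list summed to 19.3 to 73.2 CPM. Of 6 adipocyte markers 4, Adipoq among them, stayed under 1 CPM, while Plin4 reached 49.4 and Fabp4 12.1 CPM. Fewer cells of a type and less RNA per cell cannot be told apart in such bulk samples.

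The DNA element of the glucocorticoid receptor was searched as the palindrome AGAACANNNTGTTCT on both strands of the GRCm39 genome, with N standing for any base. Only 0.118% of 14442 protein-coding genes with reads held a perfect copy within 5 kb of their start site, and 1.85% held one in the gene or 10 kb to either side. Among the members it was found at Sgk1 and, in 2 copies, at Fkbp5, each in an intron by the GENCODE M39 annotation. They are shown because these genes are the members with a perfect element in reach, with 20 bases on either side and the palindrome in capitals, on the strand of the gene.
Sgk1, chr10:21869580-21869634, plus strand, centre 958 bases before the start of the canonical transcript and inside longer ones: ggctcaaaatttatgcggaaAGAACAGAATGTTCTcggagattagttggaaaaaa
Fkbp5, chr17:28661373-28661427, minus strand, centre 43752 bases after the start: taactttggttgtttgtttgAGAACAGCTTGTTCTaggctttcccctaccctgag
Fkbp5, chr17:28639275-28639329, minus strand, centre 65850 bases after the start: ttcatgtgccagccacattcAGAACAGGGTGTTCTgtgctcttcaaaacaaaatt

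Promoter windows from 250 bases before to 50 bases after the canonical start were searched for shorter motifs on both strands. The FOXO motif GTAAACA occurred in 2.76% of all such windows and in 1 of 9 members, Txnip. The E-box CACGTG, which carbohydrate-sensing and clock factors bind, occurred in 9.6% of windows and in Fkbp5 alone among the members. The single arm AGAACA, which is contained in the palindrome above, occurred in 13.5% of windows and in 0 of 9 members. A match is a run of letters, not evidence of binding, and no match says only that these letters were not in the window. The 2 matches are shown with 20 bases on either side, motif in capitals, on the strand of the gene.
Txnip, chr3:96465132-96465178, plus strand, FOXO motif 115 bases before the start: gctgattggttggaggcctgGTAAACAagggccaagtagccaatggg
Fkbp5, chr17:28705267-28705312, minus strand, E-box 140 bases before the start: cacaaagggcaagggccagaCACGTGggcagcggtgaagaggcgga

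The first role group is made up of the alpha-arrestins Arrdc3, Arrdc2 and Txnip, adaptor proteins that bring membrane proteins to ubiquitin ligases. Arrdc3 is known for the downregulation of beta-adrenergic receptors. Arrdc3 lay at 82.1, 90.8 and 98.1 CPM (lowest, median and highest) in established WT mice and at 152, 193 and 333 CPM in established Tg mice. The genotypes did not overlap, all 7 Tg mice standing above all 6 WT mice, whereas 1.48% of genes showed such a gap in this direction in this cohort. The log2 fold change was 1.29 ± 0.18 (SE). Among early mice it lay at 50.1, 71.2 and 83.4 CPM in WT and at 37.4, 70.2 and 131 CPM in Tg, so that the early Tg mice spread to both sides of the WT mice with a similar median.

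Arrdc2, a less abundant relative, lay at 7.20, 10.5 and 17.8 CPM in established WT and at 11.2, 25.3 and 69.3 CPM in established Tg mice. Its ranges overlapped, with 5 of 7 Tg mice above the highest WT mouse, and the log2 fold change was 1.35 ± 0.37. In early mice the levels were 8.73, 11.7 and 13.1 CPM in WT and 6.63, 10.4 and 17.7 CPM in Tg.

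Txnip binds thioredoxin and curbs glucose uptake. It was the most abundant member, also per length, with a median of 336 CPM per kb of exon in established Tg mice against 22.6 for Arrdc3 and 7.52 for Arrdc2. It lay at 462, 643 and 752 CPM in established WT and at 604, 1064 and 2284 CPM in established Tg mice. Here 6 of 7 Tg mice exceeded every WT mouse, with a log2 fold change of 1.05 ± 0.25. Early mice lay lower, at 277, 350 and 617 CPM in WT and 193, 346 and 498 CPM in Tg.

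Arrdc4, a further relative that shares regulators with Txnip and was no member, lay at 12.7 to 17.0 CPM in established WT and 15.3 to 24.1 CPM in established Tg mice. Its log2 fold change was 0.29 ± 0.11, with an FDR of 0.12 in edgeR's test.

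The second role group holds genes used as readouts of the glucocorticoid receptor. Fkbp5 encodes a co-chaperone that dampens the receptor in a feedback loop. It lay at 32.8, 50.4 and 70.2 CPM in established WT and at 65.1, 106 and 304 CPM in established Tg mice. Only 1 of 7 Tg mice fell within the WT range, and the log2 fold change was 1.38 ± 0.32. Its early levels were 26.6, 47.0 and 102 CPM in WT and 15.9, 74.2 and 205 CPM in Tg. The early Tg group thus spanned 12.9-fold from lowest to highest, against 2.14-fold in established WT mice.

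Zbtb16, a zinc finger repressor also called PLZF, followed the same shape. It lay at 42.7, 77.3 and 100.4 CPM in established WT and at 91.1, 127 and 301 CPM in established Tg mice. Again 6 of 7 Tg mice stood above the WT mice, with a log2 fold change of 1.05 ± 0.26. Early levels were 22.4, 73.9 and 141 CPM in WT and 20.4, 101 and 224 CPM in Tg, an 11.0-fold span in the latter.

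Sgk1, a kinase of the AKT family that phosphorylates FOXO factors and ion channel regulators, lay at 38.9, 55.5 and 76.4 CPM in established WT and at 64.4, 85.0 and 229 CPM in established Tg mice. The log2 fold change was 0.94 ± 0.28, and 6 of 7 Tg mice exceeded the highest WT mouse. In early mice it lay at 42.7, 46.9 and 117 CPM in WT and at 37.1, 55.9 and 194 CPM in Tg.

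Tsc22d3 encodes GILZ, a leucine zipper protein that carries part of the anti-inflammatory action of glucocorticoids. It lay at 137, 231 and 417 CPM in established WT and at 229, 363 and 599 CPM in established Tg mice, with 3 of 7 Tg mice above the WT range and a log2 fold change of 0.72 ± 0.28. Its early levels were 105, 139 and 573 CPM in WT and 137, 257 and 408 CPM in Tg. Klf9, a Krüppel-like factor induced by glucocorticoids and coupled to the clock, was the steadiest of this group. It lay at 191, 252 and 345 CPM in established WT and at 221, 378 and 521 CPM in established Tg mice, with a log2 fold change of 0.54 ± 0.19 and 4 of 7 Tg mice above the WT range. Its early levels were 193, 260 and 325 CPM in WT and 199, 243 and 420 CPM in Tg.

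Pdk4 stood apart from the other 8 members. It encodes a kinase that shuts off pyruvate dehydrogenase and so spares glucose in fasting, and it is abundant in muscle. It lay at 4.59, 14.1 and 88.2 CPM in established WT and at 5.49, 9.02 and 286 CPM in established Tg mice. The Tg median was below the WT median, and the fitted log2 fold change of 0.75 had an SE of 1.03. Early levels were 4.27, 11.7 and 69.3 CPM in WT and 3.76, 24.8 and 67.1 CPM in Tg.

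**Figure D1:**
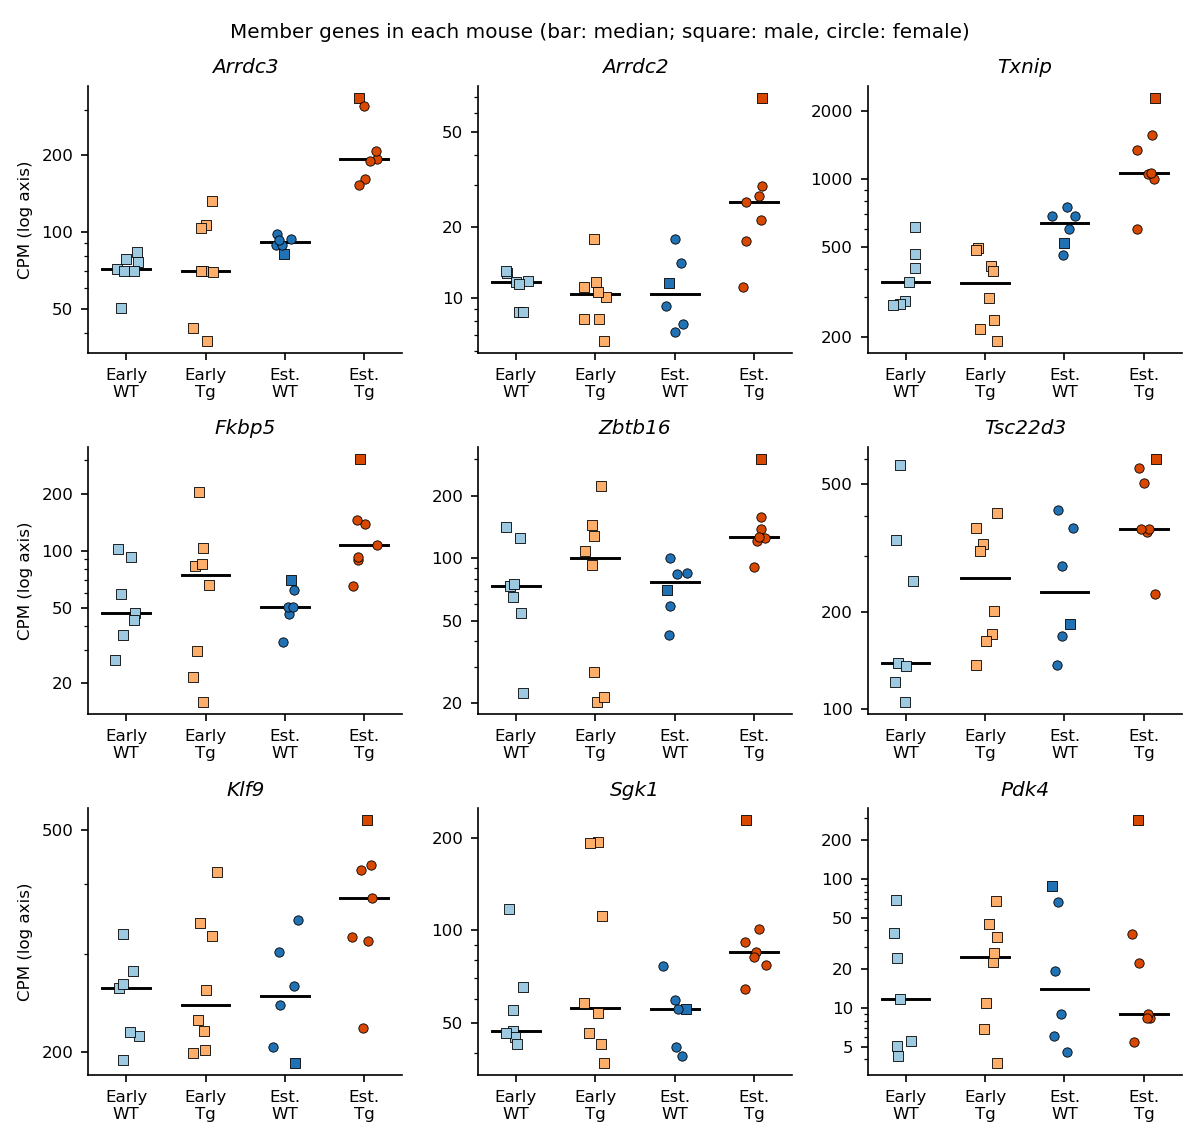
CPM of each member on a log axis in the 4 groups (Est., established); each point is 1 mouse, squares are males, circles are females and bars are medians. The established Tg mice lie above the established WT mice without overlap for Arrdc3 (152 to 333 against 82.1 to 98.1 CPM), partly overlap them for 7 other members and spread over the same range for Pdk4 apart from 1 male at 286 CPM.

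In the established cohort the 9 log2 fold changes were above 0 and had a median of 1.05, beside a median of 0.01 over all 15862 genes tested. In edgeR's test 5 of 9 members were called higher, where 3.14% of all genes were. These counts come from the contrast that chose the members and support nothing. The count was 1 without WT mouse 1, 2, 4 or 6 or Tg mouse 1, 2 without WT mouse 5 and 3 without Tg mouse 2. Calls over all genes fell as well, to 361 to 559 in these fits, against 1032 with every mouse. The count of members was 0 with the mean log2 level of the tendon markers as a covariate, where Arrdc3 had a log2 fold change of 0.70 ± 0.13. In that fit 19 of all 15862 genes were called in either direction, against 1032 without the covariate. The part of the tendon markers in these values was not tested, since they differ between the genotypes themselves.

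A single animal, established Tg mouse 5, held the highest value of its group in 9 of 9 members. It was the only male of that group. Its mean log2 CPM over the tendon markers was 7.52, where the other 6 mice of its group lay between 8.98 and 11.0, and its muscle score of 8.74 was the highest of the group. Without this mouse the log2 fold changes were 1.16 ± 0.15 for Arrdc3, 1.03 ± 0.21 for Fkbp5, 0.96 ± 0.26 for Arrdc2 and 0.84 ± 0.20 for Txnip. The value of Pdk4 turned to -1.09 ± 0.75. At the other end, Tg mouse 7 was lowest in 7 of 9 members.

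The early cohort was not used to choose the members, so the question whether they differed before the established stage could be tested. None of the members passed: 0 of 9 had an FDR of at most 0.05 and 0 had an unadjusted p under 0.05 by edgeR, and DESeq2 and limma voom also called 0. In the same test 0.0396% of 15138 genes were called. The log2 fold change was 0.14 ± 0.23 for Arrdc3 (FDR 0.93), with an approximate 95% interval from -0.30 to 0.59. It was 0.40 ± 0.46 for Fkbp5 (FDR 0.92), with an interval from -0.50 to 1.30 that reaches close to the 1.38 of established mice. Txnip had -0.17 ± 0.24 with an interval from -0.63 to 0.30.

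The largest early estimate was that of Sgk1, 0.62 ± 0.38 (FDR 0.85), with an interval from -0.13 to 1.38. The other 5 members lay between -0.09 for Arrdc2 and 0.27 for Zbtb16 and Pdk4. None of the 9 separated the early genotypes without overlap, where 0.0528% of genes did. Whether the genotype difference itself differed between the cohorts was not tested.

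**Figure D2:**
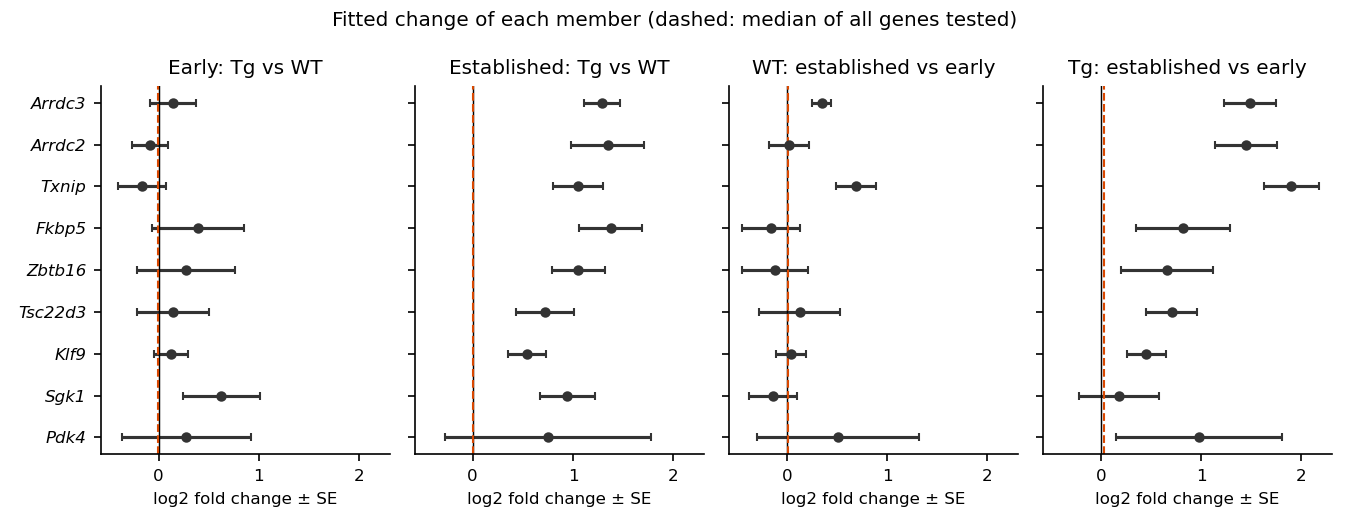
Fitted log2 fold change of each member in the 4 comparisons, with bars of 1 SE; the solid line marks 0 and the dashed line the median of all genes tested. The 9 values lie above 0 for established Tg against WT, 0.54 to 1.38, whereas the early values lie between -0.17 and 0.62 with bars that mostly cross 0.

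The cohorts, which differ in age and almost wholly in sex, were compared next within each genotype. In WT mice 0 of 9 members passed between the early and the established cohort by edgeR, where 4.74% of 15645 genes were called in either direction. An unadjusted p under 0.05 was reached by 2 members, Txnip and Arrdc3. Txnip came nearest, with a log2 fold change of 0.69 ± 0.20 and an FDR of 0.058. Txnip passed in DESeq2 (FDR 0.012) and without early WT mouse 2 (FDR 0.017) or established WT mouse 2 (FDR 0.048). Arrdc3 had a log2 fold change of 0.35 ± 0.10, and 5 of 6 established WT mice exceeded every early WT mouse. It came past the threshold in 3 of 21 alternatives (DESeq2, the muscle score and library totals alone). Txnip passed in the same 3 besides the left-out mice. The choice of the members used the established WT mice, so the calls of Arrdc3 and Txnip here support nothing. The members of the second role group lay within -0.15 and 0.13.

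In Tg mice 4 of 9 members, Arrdc3 among them, were called higher in the established cohort, where 24.2% of 15470 genes were. The high group holds the established Tg mice whose levels were used to choose the members. This count and the members' FDRs in this comparison are therefore a description and support nothing. Called lower were 3484 of 15470 genes, 5 of 8 tendon markers (median -1.42) and 3 of 12 skeletal muscle markers (median -1.32). The count of muscle markers is near the share of all genes. Of the erythroid markers 3 of 4 were higher (median 2.97). That list summed to 7.79 to 11.3 CPM in early and 10.2 to 126 CPM in established Tg mice. The part of these markers in the members' values was not tested. Txnip rose most, by a log2 fold change of 1.90 ± 0.27 (edgeR FDR 5.3e-05). Arrdc2 rose by 1.45 ± 0.31 (edgeR FDR 0.0013). Tsc22d3 rose by 0.71 ± 0.26 (edgeR FDR 0.032), a call that was lost, at an FDR of 0.057 to 0.065, without early Tg mouse 1, 2, 3 or 7 or established Tg mouse 3, 4 or 5. Arrdc3, whose choice used the established mice, had 1.49 ± 0.26.

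The other readouts of the receptor did not pass between the Tg cohorts. The estimates were 0.82 ± 0.47 for Fkbp5 (edgeR FDR 0.16), 0.66 ± 0.46 for Zbtb16 (FDR 0.24) and 0.18 ± 0.40 for Sgk1 (FDR 0.73). Klf9 had 0.45 ± 0.19 (FDR 0.065) and Pdk4 0.98 ± 0.83 (FDR 0.34). This comparison shares its established Tg mice with the genotype comparison, and the early mice were males while 6 of 7 established Tg mice were females.

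Co-variation from mouse to mouse was examined after the mean of each of the 4 groups had been removed from log2 CPM, so that neither genotype nor cohort entered. The 36 pairs of members had Pearson correlations from 0.12 to 0.94 with a median of 0.56 over 28 mice, and a median Spearman rho of 0.48. All pairs of 16082 genes had a median of 0.001. A correlation of at least 0.5 was reached by 20 of 36 member pairs and by 6.79% of all gene pairs. The points share library scaling and depth, and the values are a description. The median was 0.50 over the 15 early mice and 0.72 over the 13 established mice.

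The tightest pair was Fkbp5 and Zbtb16, with r = 0.94 and rho = 0.93, and each was the gene nearest to the other among 14571 genes with a mean of at least 1 CPM. Without the 2 mice farthest from the median the pair kept r = 0.92. The 10 pairs among Fkbp5, Zbtb16, Sgk1, Tsc22d3 and Klf9 lay between 0.62 and 0.94 with a median of 0.73. Arrdc3 had r = 0.81 to Sgk1 and to Fkbp5, 0.75 to Klf9, 0.72 to Zbtb16 and 0.49 to Tsc22d3, in ranks 5, 6, 27, 49 and 631 of all genes.

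Arrdc2 and Txnip had r = 0.68 to each other. Klf9 came close to both, with r = 0.66 to Arrdc2 and 0.59 to Txnip. In established mice Arrdc2 had r = 0.84 to Fkbp5 and to Klf9 and 0.86 to Zbtb16, beside 0.88 to Txnip. In early mice it had 0.14 to Fkbp5, 0.41 to Klf9, 0.01 to Zbtb16 and 0.48 to Txnip. With all mice it had 0.40 to Fkbp5 and 0.28 to Zbtb16, and 0.20 and 0.12 without the 2 mice farthest from the median. The established mice include Tg mouse 5, the highest of its group in each of these genes. Over all mice the 15 pairs between the 3 alpha-arrestins and the 5 receptor readouts had a median of 0.44. Txnip and Fkbp5 had r = 0.39 over all mice, 0.24 within early mice and 0.77 within established mice. The value over all mice rests on few animals, since it was 0.24 without the 2 farthest from the median. Within early WT mice alone it was -0.59 and within early Tg mice 0.56, over 7 and 8 animals.

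Pdk4 was the loosest member, with a median of 0.29 over its 8 pairs. Its r to the mean of the muscle markers was 0.89 (rho 0.90), where the other members lay between -0.16 and 0.36. Its r was also 0.88 to the endothelial markers and 0.94 to the 2 adipocyte markers that could be measured, and the part of these cell types was not tested. With the muscle score taken out as well, its r to Txnip was 0.63 in place of 0.15 and to Arrdc2 0.58 in place of 0.12. Pearson correlations with the mean of the tendon markers were negative for 9 of 9 members, from -0.55 for Arrdc2 to -0.20 for Tsc22d3. By Spearman's rho they ran from -0.45 for Arrdc3 to -0.08 for Klf9, with -0.16 for Arrdc2. The share of all genes with a negative correlation was not worked out.

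**Figure D3:**
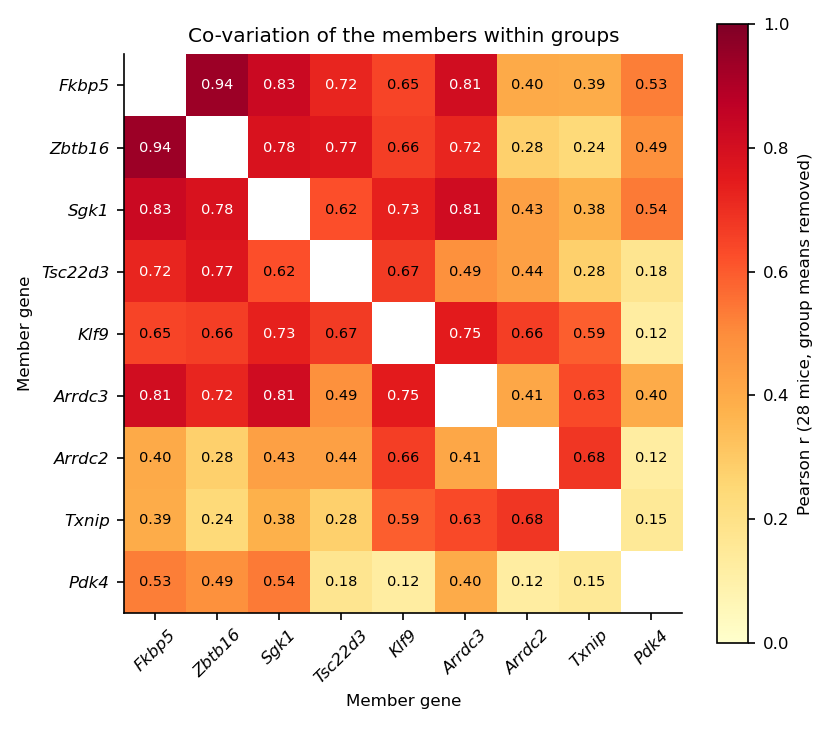
Pearson correlation of each pair of members over 28 mice after group means were removed from log2 CPM; darker cells are higher, on a scale from 0 to 1. The block of Fkbp5, Zbtb16, Sgk1, Tsc22d3 and Klf9 holds values of 0.62 to 0.94, and the row of Pdk4 holds values of 0.12 to 0.54.

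To test co-variation against all genes, the level of Fkbp5 was entered as a covariate beside the 4 groups in edgeR. The fit took the mice as independent and had no term for the mouse number. Early mice with the same number in both genotypes deviated together, with a median r of 0.28, which limits the FDRs below. Of 16081 genes, 4.31% had a positive slope at an FDR of at most 0.05. Of the 8 other members 6 passed, and 8 of 8 slopes were positive. Zbtb16 changed by 0.99 ± 0.08 on the log2 scale for each log2 unit of Fkbp5 (FDR 3.5e-09), that is, nearly in proportion. Sgk1 had a slope of 0.68 ± 0.08 (FDR 2.6e-05), Arrdc3 0.40 ± 0.06 (FDR 0.00037) and Klf9 0.27 ± 0.06 (FDR 0.0092).

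Tsc22d3 had a slope of 0.58 ± 0.11 (FDR 0.0027). Pdk4 had 1.24 ± 0.32 (FDR 0.015), a call lost without established Tg mouse 5 (FDR 0.17) and with the muscle score as a covariate (FDR 0.058). Arrdc2 and Txnip did not pass, with 0.28 ± 0.11 (FDR 0.095) and 0.21 ± 0.10 (FDR 0.18).

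Fitted within single cohorts, 5 of 8 members passed each time, where 247 of 15137 genes had a positive slope that passed in early and 460 of 15861 in established mice, and Zbtb16, Sgk1 and Arrdc3 were among them in both. Over the 15 early mice Tsc22d3 and Klf9 completed the 5, and over the 13 established mice Arrdc2 (FDR 0.0078) and Txnip (FDR 0.029) did. Whether the slopes differed between cohorts was not tested.

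**Figure D4:**
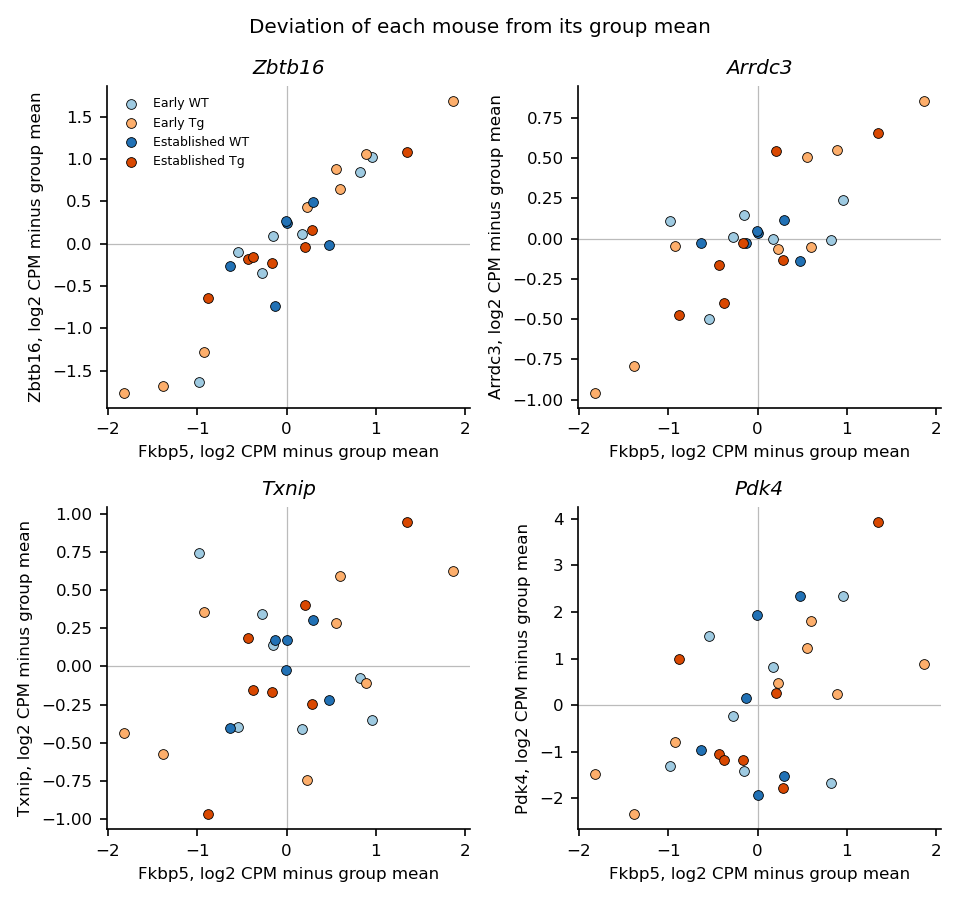
Deviation of each mouse from its group mean, in log2 CPM, for Fkbp5 on the horizontal axis and Zbtb16, Arrdc3, Txnip or Pdk4 on the vertical axis; each point is 1 mouse, coloured by group. Zbtb16 follows Fkbp5 nearly along a line (r = 0.94), Arrdc3 follows with a flatter slope of 0.40, and Txnip (r = 0.39) and Pdk4 (r = 0.53) scatter.

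Some mice stood high or low in most members at once. Early Tg mouse 4 held the highest value of its group in 8 of 9 members, and early Tg mouse 2 the lowest in 5. Early WT mouse 4 was highest in 7 of 9. It bears the same number as that Tg mouse, and early mice with the same number deviated together in 7 of 7 pairs. What the number marks is not in the labels, so these mice may not be independent. The mean deviation over the members was 1.06 log2 units for early Tg mouse 4 and -0.95 for early Tg mouse 3, against 0.31 and -0.43 at the extremes of established WT mice. Established Tg mouse 5 had 1.31.

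Genes outside the members that moved most like them were named by their Pearson r to each member. Fkbp5 was followed by Dcun1d3 (0.91), Map3k6 (0.90) and Tgfa (0.84), and Tgfa was also nearest to Zbtb16 (0.89). Arrdc3 was nearest to Map3k6 (0.84), Nfil3 (0.84), which encodes a clock-controlled repressor, and Patl1 (0.82). Sgk1 was nearest to the kinase gene Sik1 (0.94), Klf9 to Errfi1 (0.87), an inhibitor of EGF receptor signalling, and Tsc22d3 to Anapc16 (0.85). Arrdc2 was nearest to Smad4 (0.84) and Txnip to Arid5b (0.81). Pdk4 was nearest to Plin4 (0.95), a lipid droplet protein gene at 3.60 to 49.4 CPM that is itself on the adipocyte marker list.

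Pathway partners outside the members were taken from lists that were written down with earlier results of these data known. In the early cohort 0 of 110 such genes of 8 lists passed edgeR's test, 6 had an unadjusted p under 0.05, and DESeq2 and limma voom called 0. In the established cohort 4 of 17 further glucocorticoid-induced genes were higher in Tg mice and 0 were lower, beside the 3.14% of all genes called higher. Their median log2 fold change was 0.66, against 0.01 for all genes. Cebpd, a transcription factor of the acute phase response, was higher by 1.33 ± 0.26 (FDR 0.016), the metallothionein Mt1 by 1.09 ± 0.23 (FDR 0.019) and Errfi1 by 1.28 ± 0.31 (FDR 0.030). Per1, a clock gene that glucocorticoids induce, had 0.66 ± 0.20 and missed the threshold (FDR 0.061).

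Of 20 further FOXO target genes, 7 were higher in established Tg mice and 0 were lower, with a median of 0.46. Klf15, a fasting-induced Krüppel-like factor, differed by 2.28 ± 0.50 (FDR 0.023), the autophagy gene Gabarapl1 by 0.95 ± 0.21 (FDR 0.024) and the growth arrest gene Gadd45a by 1.28 ± 0.29 (FDR 0.027). Both counts fell when single animals were left out, and so did the calls over all genes. In the fits named here 361 to 684 genes were called in either direction, against 1032 with every mouse. The glucocorticoid-induced genes called higher were 2 without Tg mouse 3 or WT mouse 1, 2, 4 or 5. The FOXO targets were 1 without WT mouse 1 or 2, 2 without Tg mouse 1 or WT mouse 5 and 3 without Tg mouse 2 or WT mouse 4 or 6. With the tendon score as a covariate 0 genes of either list passed in edgeR, where 19 of all 15862 genes did.

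The receptors and factors themselves differed less. Nr3c1 lay at 233 to 310 CPM in established Tg and 315 to 383 CPM in established WT mice, a difference of -0.34 ± 0.09 (edgeR FDR 0.037). H6pd, which supplies the cofactor for reactivation of glucocorticoids, was higher by 0.62 ± 0.11 (FDR 0.012), and the efflux pump gene Abcb1b by 0.53 ± 0.13 (FDR 0.031). Foxo3 was higher by 0.57 ± 0.14 (FDR 0.031), while Foxo1 had -0.26 ± 0.10 (FDR 0.13). Irs2, an adaptor of the insulin receptor and a FOXO target, was higher by 0.83 ± 0.20 (FDR 0.031). The calls of Nr3c1, Foxo3 and Irs2 were near the threshold. Nr3c1 passed in 12 of 23 alternatives, with an FDR of up to 0.075 without single mice and an estimate of -0.02 with library totals alone. Foxo3 and Irs2 passed in 14 of 23 each, with an FDR of up to 0.067 and 0.068 without single mice. Without WT mouse 1, 2 or 6 or Tg mouse 1, none of these 3 genes passed.

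Among the relatives of the members, Klf15, Klf11 (0.72 ± 0.19, edgeR FDR 0.037) and Klf13 (0.41 ± 0.11, FDR 0.047) were the 3 of 12 called higher, beside 3.14% of all genes, with a list median of -0.03. That count was 0 without WT mouse 1, 1 without WT mouse 2, 4, 5 or 6 or Tg mouse 1 and 1 in females only. Of all genes 361 to 559 were called in these fits without single mice and 560 in females only, against 1032 with every mouse. Of 11 tested partners of the alpha-arrestins outside the members, 0 passed in edgeR, 5 had an unadjusted p under 0.05, and DESeq2 and limma voom called 1 each. Of the 16 tested genes of the pyruvate dehydrogenase switch and fasting fuel use other than Pdk4, 1 passed, Ucp2 with 0.66 ± 0.13 (FDR 0.017). Of 14 clock genes 0 passed in edgeR, 3 had an unadjusted p under 0.05, DESeq2 and limma voom called 3 each, and the median was -0.06.

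Between the Tg cohorts 13 of 20 FOXO targets were higher and 1 was lower in established mice, beside 24.2% of all genes called higher. Klf15 rose by 2.31 ± 0.39 (edgeR FDR 0.00018), Bcl2l11, which promotes apoptosis, by 1.32 ± 0.18 (FDR 3e-05) and Gabarapl1 by 1.25 ± 0.22 (FDR 0.00023), and Sesn3 fell by 0.77 on the log2 scale (FDR 0.00094). Of the glucocorticoid-induced genes 5 of 17 were higher, led by Cdkn1a (0.86 ± 0.24, FDR 0.0070), Hif3a (1.64 ± 0.45, FDR 0.0072) and Cebpd (1.00 ± 0.28, FDR 0.0084). Hsd11b1, the enzyme that regenerates active glucocorticoid inside cells, rose by 2.01 ± 0.34 (edgeR FDR 0.00021) but stayed at or under 5.12 CPM. In WT mice 0 of 110 listed genes passed between the cohorts in edgeR, 18 had an unadjusted p under 0.05, DESeq2 called 4 and limma voom 0.

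Genes of the glucocorticoid receptor machinery and of the insulin pathway moved in both directions between the Tg cohorts. Hspa8, Fkbp4 and Hsp90ab1, genes of chaperones that hold the receptor, fell by 0.66, 0.40 and 0.32 on the log2 scale. H6pd and Abcb1b rose by 0.91 and 0.84. Igf1r and Irs2 rose by 0.80 and 1.18, and Akt1 and Akt2 fell by 0.51 and 0.52. Scaled by library totals alone, which put the median of all genes at 0.75 in place of 0.03, the estimates of Hspa8, Fkbp4, Hsp90ab1, Akt1 and Akt2 turned positive. The pyruvate dehydrogenase subunit gene Pdha1 and the kinase genes Pdk1 and Pdk2 fell by 0.71, 0.76 and 0.45, of which Pdha1 and Pdk2 turned likewise. The clock outputs Dbp and Ciart fell by 0.98 and 1.03.

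In the fit on Fkbp5, 11 of 17 further glucocorticoid-induced genes had a positive slope that passed and 0 a negative one, beside 4.31% of all genes, with a median slope of 0.41. Per1 had 0.41 ± 0.10 (FDR 0.013). Among the FOXO targets 4 of 20 passed with a positive and 1 with a negative slope, and the median was -0.01. Of the clock genes 6 of 14 passed with a positive slope. Foxo1 had a slope of 0.30 ± 0.06 (FDR 0.0063), Foxo3 0.11 ± 0.05 (FDR 0.16), Nr3c1 0.00 ± 0.04 (FDR 0.95) and Arrdc4 0.17 ± 0.06 (FDR 0.054). These counts depended on the mice used. Over early mice alone 4 glucocorticoid-induced genes, 0 FOXO targets and 3 clock genes passed. Over established mice alone the counts were 2, 11 and 0. These stand beside the 247 of 15137 and 460 of 15861 genes given above for these fits. Without established Tg mouse 5 the FOXO targets that passed over all mice were 1, where 340 of 16076 genes passed. Without early Tg mouse 3 the glucocorticoid-induced genes were 6, where 442 of 16128 genes passed. No test compared the lists with each other.

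**Figure D5:**
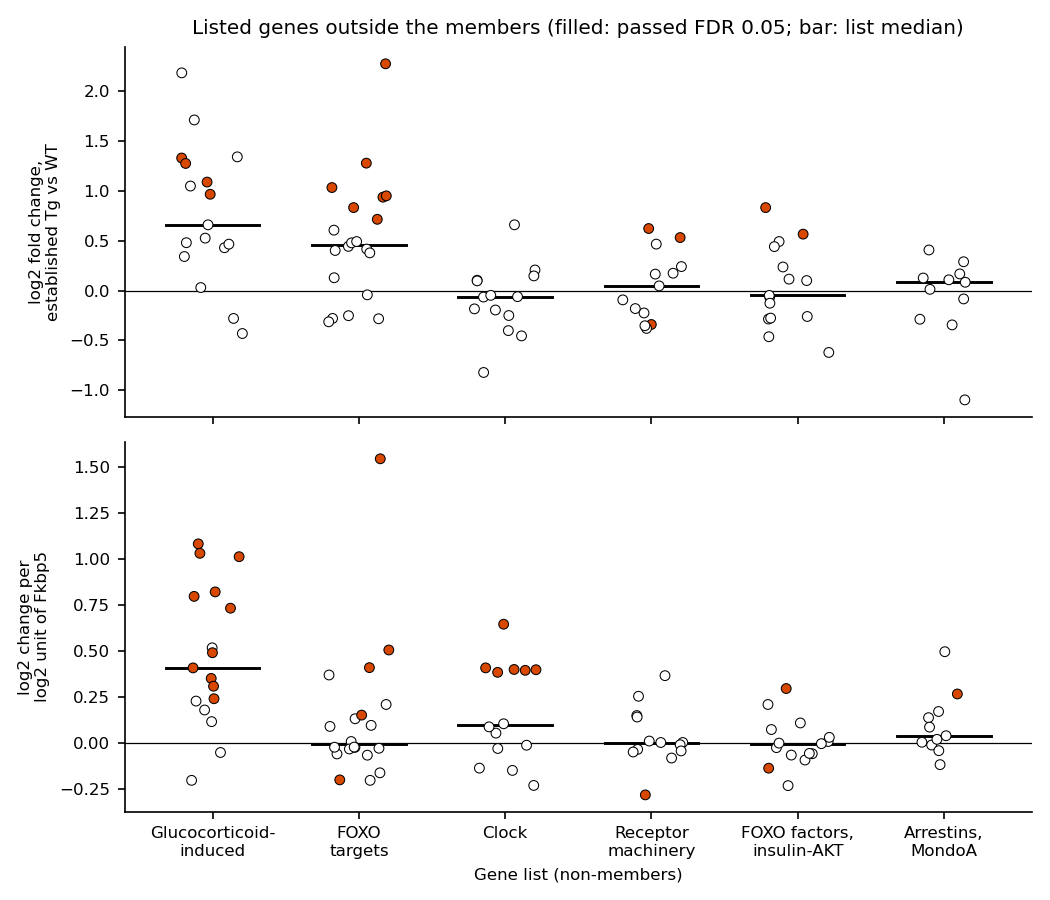
Genes of 6 lists outside the members: log2 fold change in established Tg against WT mice (top) and log2 change for each log2 unit of Fkbp5 over 28 mice (bottom); filled points passed an FDR of 0.05 and bars are list medians. The FOXO targets have a median of 0.46 in the upper panel and -0.01 in the lower one, and the glucocorticoid-induced genes have 0.66 and 0.41.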

How the data were processed

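Raw read counts per gene were deposited by the authors for 28 libraries; they had depleted ribosomal RNA, aligned reads with STAR to GRCm39 with GENCODE M26 and counted with featureCounts. Strand setting and treatment of reads with several matches are not given in the sources used here. Groups, ages and sexes came from the labels. Of 25719 gene identifiers 25505 were named by GENCODE M39. Library totals ran from 9645598 to 66894396 counts, so sampling error matters more for low genes, Pdk4 and Arrdc2 among the members. Its part in their spread was not tested.

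Genes were kept by filterByExpr (minimum count 10, minimum total 15) and tested with edgeR 4.0.16 (R 4.3.3), TMM scaling and quasi-likelihood F tests, with Benjamini-Hochberg FDR over all genes tested and a threshold of 0.05. Each comparison was fitted on its own groups, and co-variation on all mice with Fkbp5 beside 4 group terms. Alternatives were DESeq2 1.42.0, limma 3.58.1 voom, other scalings and filters, a muscle score, females only, single cohorts, a replicate block and leaving out each mouse. Library totals alone, the tendon score and the alternatives for genes outside the members were added after seeing the data. On simulated data 200 genes were changed by 1 to 3 on the log2 scale. The tests recovered 97.4% (early), 95.4% (established), 95% (WT cohorts), 95.5% (Tg cohorts) and 99% (co-variation). Smaller changes, the size of the members' early estimates, were not simulated, so these shares do not apply to them. Log2 CPM for correlations used a prior count of 2.

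The members and lists were chosen with earlier results of these data known. Beside the members the text names Nr3c1, Foxo1, Foxo3, Per1 and Arrdc4, up to 3 genes per list and direction with the smallest p among those that passed, and the genes nearest to each member (3 for Arrdc3 and Fkbp5, 1 for the others, mean of at least 1 CPM); some genes that this rule names are not reported here. Mice with the same number in both early groups deviated together in 7 of 7 pairs, with r from 0.14 to 0.40, but 0 of 7 WT mice were closest to their own number; the source of this pairing is not in the labels. Fkbp5 overlaps the gene Gm49839 on the same strand, in an intron. Each mouse was a separate animal, and litter mates are not marked.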

Additional observations from a re-analysis of the deposited data

Results flagged for a closer look

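In each of 36 sets, 1 for each member and group, the mouse farthest out was compared with the spread of its group by Dixon's criterion, and 9 sets held a mouse apart, where chance gives about 1 in 20. The male established Tg mouse 5 stood apart with 69.3 CPM of Arrdc2, 304 CPM of Fkbp5, 301 CPM of Zbtb16, 229 CPM of Sgk1 and 286 CPM of Pdk4. It also had the lowest tendon score and the highest muscle score of its group, and the part of these in its values was not tested. Early Tg mouse 4 stood apart with 17.7 CPM of Arrdc2 and 205 CPM of Fkbp5, early WT mouse 4 with 117 CPM of Sgk1, and early WT mouse 5, on the low side, with 50.1 CPM of Arrdc3. The sets share mice and the members vary together, so the 9 are not independent.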

How the results depend on the processing

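The count of members called in established Tg against WT mice, 5, was 3 with all libraries in 1 fit (1663 of 16082 genes called), 2 in females only (560 of 15853), 8 with library totals alone (7544 of 15862) and 0 with the tendon score (19 of 15862). It ran from 1 to 6 when single mice were left out, where 361 to 1166 genes were called. Between WT cohorts the count of 0 became 2, Txnip and Arrdc3, with DESeq2 (1622 of 18208 genes called), the muscle score (1287 of 15645) or library totals alone (1143 of 15645), and 0 to 1 without single mice (1 without early WT mouse 2 or established WT mouse 2). Between Tg cohorts the count of 4 became 8 with library totals alone, where 12478 of 15470 genes were called, and 3 to 6 without single mice. Arrdc3 enters the counts of both comparisons between cohorts. The choice of the members used the established mice, so their calls there support nothing. The early count was 0 in every alternative run. The median correlation of the members moved from 0.56 to 0.72 in established mice only. Genes called in all were 6 early (25 by DESeq2, 10 by voom, 11 with the replicate block) and 1032 established (2177 by DESeq2, 1984 by voom, 1699 with the muscle score). With the replicate block the members called were 0 early, 6 established, 0 between WT cohorts and 5 between Tg cohorts. The cause of these shifts was not tested.

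No estimate below passed where its sign turned, unless an FDR is given. Early: library totals alone gave Arrdc3 -0.0340, Tsc22d3 -0.0478 and Klf9 -0.0438, the muscle score Tsc22d3 -0.0621, Zbtb16 -0.15 and Pdk4 -0.37, and the replicate block Zbtb16 -0.0787. Established: Pdk4 was -0.45 in females only and -2.48 with the tendon score. WT cohorts: the replicate block gave Arrdc2 -0.0311, Fkbp5 0.0850 and Zbtb16 0.16, library totals alone Fkbp5 0.0773, Zbtb16 0.14 and Sgk1 0.12, and established females Pdk4 -0.12. Tg cohorts: established females gave Sgk1 -0.14 and Pdk4 -0.85.

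Leaving out single mice turned these: early Arrdc3 (-0.00193 to 0.26), Fkbp5 (-0.00103 to 0.60), Zbtb16 (-0.0316 to 0.48) and Pdk4 (-0.0554 to 0.88), established Pdk4 (-1.09 to 1.38), between WT cohorts Arrdc2 (-0.15 to 0.12), Fkbp5 (-0.30 to 0.0269), Tsc22d3 (-0.0576 to 0.51), Klf9 (-0.0574 to 0.11), Zbtb16 (-0.29 to 0.0750), Sgk1 (-0.25 to 0.11) and Pdk4 (-0.12 to 1.09), and between Tg cohorts Sgk1 (-0.14 to 0.42) and Pdk4 (-0.85 to 1.30).

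Outside the members, library totals alone turned the established estimate of Foxo1 to 0.0675 and, between Tg cohorts, those of Akt1 (0.22, FDR 0.028), Akt2 (0.20), Fkbp1a (0.23), Fkbp4 (0.31, FDR 0.024), Hsp90ab1 (0.40, FDR 0.0039), Hspa8 (0.0536), Nedd4 (0.25), Pdha1 (0.0022), Pdk2 (0.26), Tsc22d1 (0.0525), Txn2 (0.22), Wwp2 (0.50, FDR 8.4e-05) and Zbtb20 (0.0382), all by edgeR. The slope of Nr3c1 on Fkbp5 was -0.0856 in established mice only and ran from -0.0148 to 0.0366 without single mice.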
